A study of Mus musculus with 6 samples.

Results

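Of 55416 genes counted in the tibialis anterior (TA) muscle of aged mice, 9 genes of cell cycle arrest and cell senescence were followed here, chosen by their symbols: Cdkn1a, Cdkn1b, Cdkn1c, Cdkn2a, Trp53, Mdm2, Ccng1, Gdf15 and Lmnb1. Each symbol matched 1 row of the count table. The TA is a fast muscle of the lower leg. The WT group held 3 libraries and the SELENOW KO group held 3, all from mice aged naturally to 24 months, on a C57BL/6N background and, by the methods of the study, male. The KO mice carried a deletion of an exon of Selenow, made with a pair of guide RNAs and tied to no cell type in the methods, and the WT mice had Selenow intact. The labels number the libraries without naming animals, and the study counts its RNA-seq replicates as mice. The study asked how loss of SELENOW, a small redox protein, changes gene expression in sarcopenic muscle, and the present question is whether arrest and senescence genes differed between the genotypes.

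Cells leave the cycle when CDK inhibitors block the cyclin-dependent kinases. The Cip/Kip family, p21 (Cdkn1a), p27 (Cdkn1b) and p57 (Cdkn1c), binds cyclin-CDK complexes broadly, while p16, a product of Cdkn2a, belongs to the INK4 family and blocks CDK4 and CDK6. The transcription factor p53 (Trp53) induces Cdkn1a, Mdm2 and Ccng1 after DNA damage, and MDM2 in turn marks p53 for degradation. Senescent cells are often recognized by high p16 or p21, by low lamin B1 (Lmnb1) and by secreted factors, and GDF15 is a stress cytokine that p53 can also induce. Muscle fiber nuclei do not divide, and Cdkn1a and Cdkn1c are also switched on as myoblasts differentiate.

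Promoter sequences are shown for Cdkn1a, the member that passed the main test given below. Beside it stand Cdkn1b of its family and Trp53, Mdm2 and Ccng1 of the p53 pathway, which did not pass. They are printed to show which motifs these starts share. RefSeq (GRCm38.p6) gave windows of 300 bases, 250 before and 50 after a transcription start, for 7 of the 9 members, and Cdkn1c and Lmnb1 had none here. Capitals mark motifs searched on both strands: the p53 half-site by its 10-base consensus, the GC box GGGCGG, the E-box CAGCTG and the TATA box TATAAA. No match of these motifs overlapped another in the windows printed. Of 32851 windows of this length, 8.36% hold a p53 half-site, 35.7% a GC box, 16.3% the E-box and 13.6% the TATA box. The first line is the upstream start of Cdkn1a on the plus strand, chr17:29090729-29091028, the second a start 2790 bases downstream, chr17:29093519-29093818, the third Mdm2 on the minus strand, chr10:117710709-117711008, the fourth Ccng1 on the minus strand, chr11:40755237-40755536, the fifth Trp53 on the plus strand, chr11:69580109-69580408, and the last Cdkn1b on the plus strand, chr6:134920151-134920450.
Cdkn1a upstream start: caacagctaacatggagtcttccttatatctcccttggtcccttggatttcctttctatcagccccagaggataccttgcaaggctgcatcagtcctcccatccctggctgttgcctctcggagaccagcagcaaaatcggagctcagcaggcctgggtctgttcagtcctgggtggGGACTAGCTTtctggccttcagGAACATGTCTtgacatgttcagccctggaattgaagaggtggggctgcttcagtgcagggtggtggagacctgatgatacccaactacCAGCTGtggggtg
Cdkn1a downstream start: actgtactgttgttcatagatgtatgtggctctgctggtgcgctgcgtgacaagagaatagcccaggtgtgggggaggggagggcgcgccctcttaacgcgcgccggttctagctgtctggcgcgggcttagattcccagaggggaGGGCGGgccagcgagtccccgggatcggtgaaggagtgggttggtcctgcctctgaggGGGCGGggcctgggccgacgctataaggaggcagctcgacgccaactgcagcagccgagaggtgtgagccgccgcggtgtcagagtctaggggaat
Mdm2: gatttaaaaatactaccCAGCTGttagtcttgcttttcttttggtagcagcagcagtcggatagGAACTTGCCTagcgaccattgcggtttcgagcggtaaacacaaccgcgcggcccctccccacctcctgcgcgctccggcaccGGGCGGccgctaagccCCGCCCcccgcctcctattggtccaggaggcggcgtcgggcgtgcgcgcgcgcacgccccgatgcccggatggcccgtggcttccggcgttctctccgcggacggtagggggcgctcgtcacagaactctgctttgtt
Ccng1: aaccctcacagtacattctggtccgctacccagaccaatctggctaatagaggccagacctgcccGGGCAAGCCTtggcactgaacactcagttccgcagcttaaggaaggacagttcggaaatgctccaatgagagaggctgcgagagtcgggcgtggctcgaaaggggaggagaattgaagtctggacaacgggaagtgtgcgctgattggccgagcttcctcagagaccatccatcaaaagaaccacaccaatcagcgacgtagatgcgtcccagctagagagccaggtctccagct
Trp53: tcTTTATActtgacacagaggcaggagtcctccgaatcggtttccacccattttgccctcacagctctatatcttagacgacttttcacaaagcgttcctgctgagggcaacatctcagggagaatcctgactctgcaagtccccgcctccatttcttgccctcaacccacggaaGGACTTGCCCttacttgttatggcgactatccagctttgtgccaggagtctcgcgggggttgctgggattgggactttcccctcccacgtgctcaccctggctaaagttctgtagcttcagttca
Cdkn1b: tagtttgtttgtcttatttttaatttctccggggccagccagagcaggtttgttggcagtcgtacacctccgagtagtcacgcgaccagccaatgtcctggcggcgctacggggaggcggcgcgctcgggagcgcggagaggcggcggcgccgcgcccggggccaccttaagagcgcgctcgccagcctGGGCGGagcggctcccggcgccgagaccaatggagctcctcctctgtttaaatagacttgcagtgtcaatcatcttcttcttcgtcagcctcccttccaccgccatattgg

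The upstream window of Cdkn1a held 2 matches to the p53 half-site and 1 E-box, and its downstream window held 2 GC boxes and no half-site. Mdm2 held 1 half-site, 2 GC boxes and 1 E-box, Ccng1 held 1 half-site, Trp53 held 1 half-site and 1 TATA box, and Cdkn1b held 1 GC box and no half-site. Of the windows not printed, the 2 of Gdf15 and the 2 of Cdkn2a held no half-site. A match is a description of the letters and was not measured as binding in these mice.

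The WT libraries held 25351976 to 29111213 counts and the KO libraries 27345022 to 27815342, and mitochondrially encoded genes took 29.1% to 37.3% of them in WT and 35.4% to 40.3% in KO. A level is given as CPM, a read count normalised to the library size after scaling by TMM factors, and a fold change is KO against WT on the log2 scale. The label of skeletal muscle was checked with 10 fiber markers such as Ckm and Myh4, whose summed CPM ranged from 90632 to 118886 in WT and from 100643 to 117492 in KO. Selenow itself, the targeted gene, had 268, 245 and 219 CPM in WT and 193, 212 and 210 in KO, with no overlap and a log2 fold change of -0.25 (SE 0.14, adjusted p = 0.604, edgeR's quasi-likelihood test with Benjamini-Hochberg adjustment), and counts per gene do not show the deleted exon. WT replicate 3 stood apart from the other WT libraries in the sums of leukocyte and fibroblast markers, though not in those of all other cells. The summed CPM of 12 leukocyte markers was 26.2, 17.5 and 60.04 in WT replicates 1, 2 and 3 and 15.3 to 24.8 in KO. In WT replicate 3 Lyz2 gave 37.2 of the 60.04, and S100a8 was lower there than in the other WT libraries. Of these 12, 8 were tested: Csf1r passed as lower and Cd3e as higher in KO. The sum of 7 fibroblast markers was 159, 87.9 and 281 in WT and 74.0 to 153 in KO, and 0 of them passed. Of these, Ly6a went the other way within WT, at 11.6, 11.9 and 7.25 CPM in replicates 1, 2 and 3. In bulk muscle fewer cells of a type and less RNA per cell cannot be told apart.

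As compared with WT muscle, the p21 gene Cdkn1a fell in KO muscle, and by edgeR no other member passed the thresholds of the study. These were an unadjusted p under 0.05 with a fold change over 1.5 or under 0.7, which the study applied with DESeq2. Of the 9 members, 7 had enough counts to be tested: 1 passed, lower in KO, and 0 were higher. These thresholds called 5.31% of the 15623 genes tested, 3.12% as lower and 2.19% as higher in KO. With an adjusted p under 0.05 edgeR called 0 members and 0 genes of all tested, against 1 member and 1545 genes (9.89%) with an unadjusted p under 0.05. DESeq2, the test of the study, called 2 members by the same thresholds, Cdkn1a and Cdkn1c, beside 771 of the 15623 genes. It called 0 members and 45 genes with an adjusted p under 0.05. The median log2 fold change of the 7 tested members was 0.10, with 2 below 0 and 5 above, beside a median of -0.0042 and 50.6% below 0 over all genes tested.

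**Figure D1:**
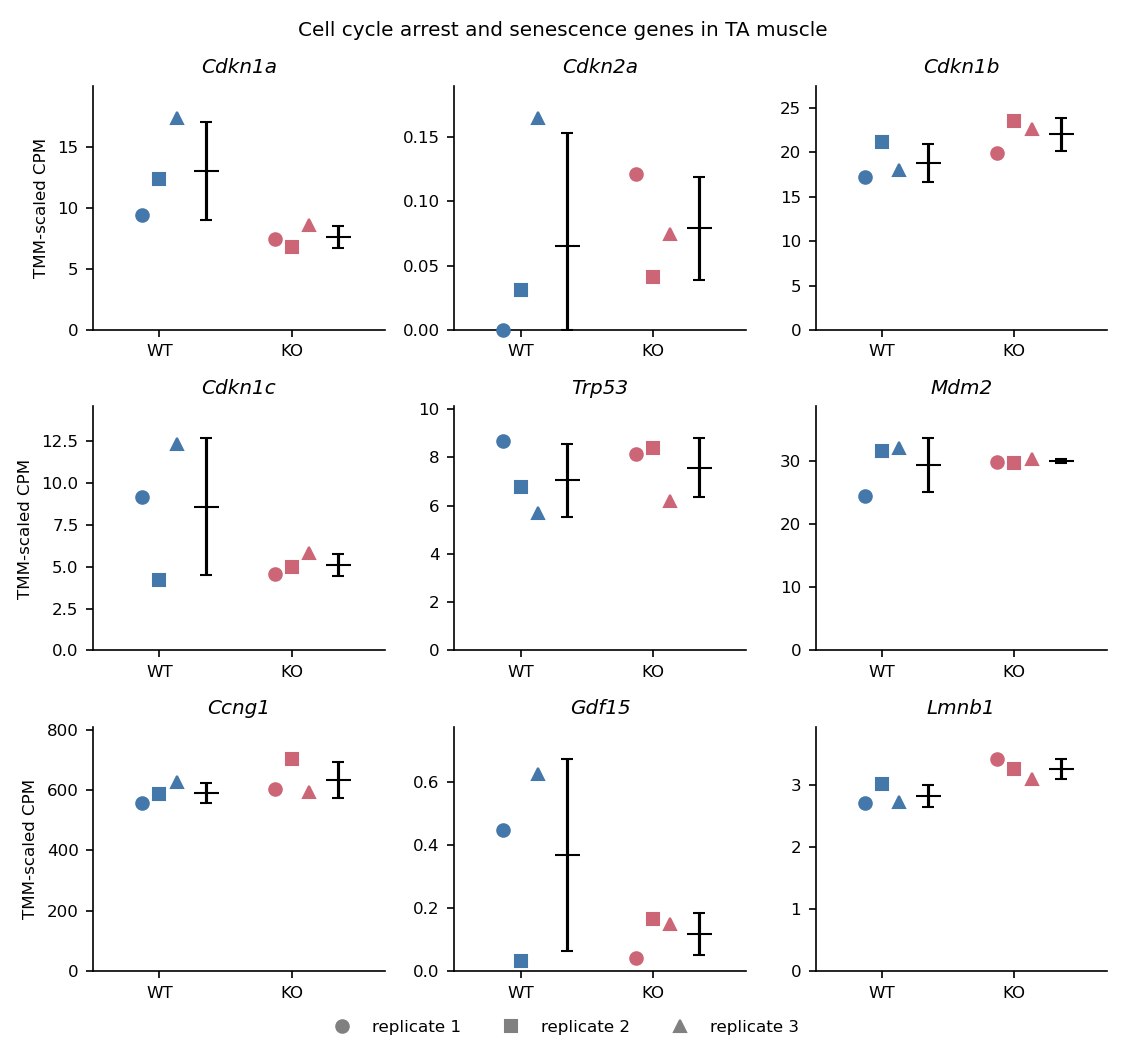
TMM-scaled CPM (vertical axis, from 0) of the 9 members in 3 WT (blue) and 3 KO (red) libraries. Symbols mark the replicate and bars the mean with the SD, with the lower bar of Cdkn2a in WT ended at 0. All KO values of Cdkn1a, at most 8.60, lie below the lowest WT value of 9.41, those of Lmnb1 lie above the WT values, and the other 7 members overlap between the genotypes.

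Cdkn1a encodes p21, the CDK inhibitor through which p53 stops the cycle in G1. The gene (ENSMUSG00000023067) lies on chromosome 17 from 29309950 to 29319701 on the plus strand in GRCm39, with 3553 bases of merged exons. It had 9.41, 12.4 and 17.4 CPM in WT replicates 1, 2 and 3, from 232, 397 and 528 counts. In KO it had 7.45, 6.77 and 8.60 CPM, from 185, 166 and 230 counts. The 3 KO values lay under the lowest WT value, the WT libraries spread more widely than the KO libraries, and the highest value was in WT replicate 3. The WT mean was 13.1 ± 4.03 and the KO mean 7.61 ± 0.928 (SD, n = 3 each), a change of -41.7%. The log2 fold change was -0.78 (standard error, SE, 0.21, 95% interval -1.24 to -0.32, unadjusted p = 0.00337, adjusted p = 0.301, edgeR's quasi-likelihood test), rank 171 of 15623 by p. Libraries did not overlap for 15.4% of all genes tested and, with KO lower, for 7.87%.

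The fall of Cdkn1a kept its side of the thresholds without any one library, at log2 fold changes of -0.96 to -0.52, where the value nearest 0 came without WT replicate 3. Without that library the log2 fold change of -0.518 only just passed the lower threshold, a fold change of 0.7. The unadjusted p was then 0.0128 (adjusted p = 0.416, edgeR). Within WT, Cdkn1a was 1.598 times as high in replicate 3 as the mean of replicates 1 and 2. That ratio was 2.75 for the leukocyte and 2.28 for the fibroblast marker sum. It was 1.45 for Schwann cell, 1.23 for satellite cell, 0.954 for smooth muscle and pericyte, 0.681 for endothelial and 0.601 for adipocyte markers. The part of these cells in the difference was not tested beyond leaving out WT replicate 3. A clone-named gene on the opposite strand, ENSMUSG00000117050, shares 273 exon bases with Cdkn1a, and since the library kit named in the labels does not mark strand its reads cannot be told from those of Cdkn1a there. It had 0.852, 1.56 and 1.68 CPM in WT and 0.806, 0.245 and 0.973 in KO.

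**Figure D2:**
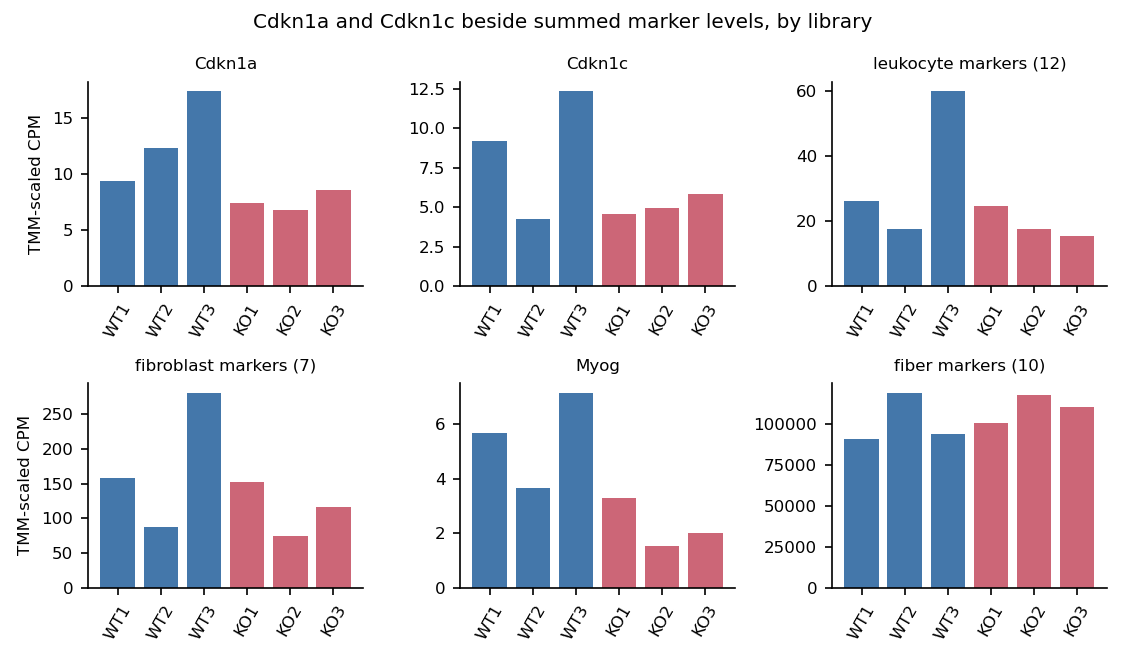
TMM-scaled CPM (vertical axes, from 0) by library for Cdkn1a, Cdkn1c and Myog and for the summed leukocyte, fibroblast and fiber markers, with WT in blue and KO in red. WT3 holds the highest bar for Cdkn1a, Cdkn1c, Myog and the leukocyte and fibroblast sums, while the fiber sum is highest in WT2.

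Cdkn1c, the imprinted gene of p57, showed a mean difference of similar size but a wider spread. The gene (ENSMUSG00000037664) lies on chromosome 7 from 143012076 to 143014787 on the minus strand in GRCm39. Its levels were 9.21, 4.23 and 12.4 CPM in WT and 4.55, 4.97 and 5.84 in KO. WT replicate 2 was below every KO library, and the other WT libraries were above them. The WT mean was 8.60 ± 4.09 and the KO mean 5.12 ± 0.654 (SD, n = 3 each). The log2 fold change was -0.74 (SE 0.37, 95% interval -1.62 to 0.14, unadjusted p = 0.0859, adjusted p = 0.576, edgeR). The result turned on WT libraries: without WT replicate 2 the log2 fold change was -1.07 (unadjusted p = 0.000128, adjusted p = 0.124, edgeR), and without WT replicate 3 it was -0.38 (unadjusted p = 0.246, edgeR).

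DESeq2 on the same genes passed Cdkn1c by the thresholds, with a log2 fold change of -0.75 and an adjusted p of 0.412. Gm44732, a gene on the opposite strand, shares 625 of the 2039 exon bases of Cdkn1c, so reads there cannot be assigned to either. Gm44732 had 3.57, 1.90 and 5.73 CPM in WT and 2.09, 2.16 and 2.36 in KO, also lowest in WT replicate 2 and highest in WT replicate 3.

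Cdkn1b, the gene of p27, which is held high in resting cells, did not pass the test. It lies on chromosome 6 from 134897364 to 134902476 on the plus strand in GRCm39 (ENSMUSG00000003031). Its levels were 17.2, 21.2 and 18.0 CPM in WT and 19.9, 23.5 and 22.6 in KO, and the genotypes overlapped through WT replicate 2. The means were 18.8 ± 2.11 and 22.0 ± 1.86 (SD, n = 3 each), with a log2 fold change of 0.23 (95% interval -0.060 to 0.51, unadjusted p = 0.111, adjusted p = 0.610, edgeR). Scaled by library totals in place of TMM factors, its log2 fold change was -0.023.

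Within the Cip/Kip family, the ratio of Cdkn1a to Cdkn1b counts in a library is free of scaling, and this comparison was added after the values were seen. The ratio was 0.547, 0.583 and 0.964 in WT and 0.374, 0.288 and 0.381 in KO. All KO ratios were below all WT ratios, and the mean difference was -0.97 on the log2 scale (p = 0.1 in a two-sided exact permutation test, which cannot go lower with 3 against 3 libraries). The ratio of Cdkn1c to Cdkn1b was 0.535, 0.200 and 0.684 in WT and 0.228, 0.211 and 0.258 in KO, with overlap (exact permutation test, two-sided, p = 0.4). Of the 5 ratios computed, 1 did not overlap between the genotypes, beside 15.4% of all genes tested. It divides Cdkn1a, already called lower in KO, by Cdkn1b, whose mean was higher in KO, so its separation is no further result.

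Cdkn2a, which encodes p16 and, from another first exon and reading frame, p19ARF, was at the limit of detection. It lies on chromosome 4 from 89192708 to 89212890 on the minus strand in GRCm39 (ENSMUSG00000044303). It had 0, 1 and 5 counts in WT and 3, 1 and 2 counts in KO, so both genotypes summed to 6 counts, with an exact Poisson interval of 2.20 to 13.1 that covers counting error only. A count of 3, taken as the smallest that shows a gene, equals 0.103 to 0.118 CPM, and 1 WT and 1 KO library reached it. Transcripts of p16 and p19ARF share exons and were not separated by counts per gene. No difference was detectable at this depth (exact permutation test, two-sided, p = 0.9).

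Trp53 encodes p53, whose activity is set mostly through its protein. It lies on chromosome 11 from 69471185 to 69482699 on the plus strand in GRCm39 (ENSMUSG00000059552). It had 8.68, 6.79 and 5.70 CPM in WT and 8.14, 8.40 and 6.17 in KO, with overlapping genotypes. The log2 fold change was 0.10 (95% interval -0.30 to 0.51, adjusted p = 0.886, edgeR), and it was -0.030 without WT replicate 3 and -0.13 with library totals in place of TMM factors. Trp53 was lowest in WT replicate 3, where Cdkn1a was highest. The count ratio of Cdkn1a to Trp53 was 1.08, 1.82 and 3.05 in WT and 0.916, 0.806 and 1.39 in KO, with overlap (exact permutation test, two-sided, p = 0.2).

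Mdm2, the ubiquitin ligase that p53 induces and that removes it, differed little between the genotypes. It lies on chromosome 10 from 117524780 to 117546663 on the minus strand in GRCm39 (ENSMUSG00000020184). It had 24.4, 31.6 and 32.0 CPM in WT and 29.8, 29.8 and 30.3 in KO. The KO libraries lay within the WT range. The log2 fold change was 0.030 (95% interval -0.26 to 0.32, adjusted p = 0.958, edgeR), and it was -0.085 without WT replicate 1 and -0.23 with library totals in place of TMM factors.

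Ccng1, the gene of cyclin G1 and a long known p53 target, was by far the most abundant member. It lies on chromosome 11 from 40639379 to 40646138 on the minus strand in GRCm39 (ENSMUSG00000020326). It had 558, 587 and 626 CPM in WT and 605, 705 and 596 in KO. The groups overlapped, and the highest value was in KO replicate 2. The log2 fold change was 0.10 (95% interval -0.22 to 0.43, adjusted p = 0.844, edgeR) and -0.15 with library totals in place of TMM factors. The intervals of Trp53, Mdm2 and Ccng1 left out a log2 fold change as low as that of Cdkn1a.

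Gdf15 was rare and did not pass the filter on low counts, so it was not tested with the other genes. It lies on chromosome 8 from 71082043 to 71085106 on the minus strand in GRCm39 (ENSMUSG00000038508). It had 11, 1 and 19 counts in WT and 1, 4 and 4 in KO, or 0.446, 0.031 and 0.626 CPM against 0.040, 0.163 and 0.150. WT replicate 2 held the same count as the lowest KO library, and the genotypes overlapped (exact permutation test, two-sided, p = 0.4). The summed counts were 31 in WT, with an exact Poisson interval of 21.1 to 44.0, and 9 in KO, with an interval of 4.12 to 17.1, both for counting error only. With no filter on low counts Gdf15 passed the thresholds with a fitted log2 fold change of -1.37, which depends on the prior count. It also passed the filter in 4 fits that left out a library. Without KO replicate 1, 2 or 3 it did not pass the thresholds (unadjusted p = 0.249, 0.116 and 0.144, edgeR). Without WT replicate 2 it did (-1.88, unadjusted p = 0.00876, edgeR). Gdf15 entered these fits through WT replicates 1 and 3, with 11 and 19 counts. WT replicate 2, with 1 count, was the WT library that overlapped KO. The call without that library rests on those where Gdf15 was high, so it is no fair test of a difference.

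Lmnb1 encodes lamin B1 of the nuclear envelope, on chromosome 18 (ENSMUSG00000024590). It had 2.72, 3.02 and 2.73 CPM in WT and 3.42, 3.26 and 3.10 in KO. The KO values all lay above the WT values with TMM scaling, so that with Cdkn1a 2 of the 7 tested members did not overlap, beside the 15.4% of all genes. The means were 2.82 ± 0.170 and 3.26 ± 0.160 (SD, n = 3 each), with a log2 fold change of 0.20 (95% interval -0.22 to 0.63, adjusted p = 0.755, edgeR). With library totals in place of TMM factors the log2 fold change was -0.042.

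**Figure D3:**
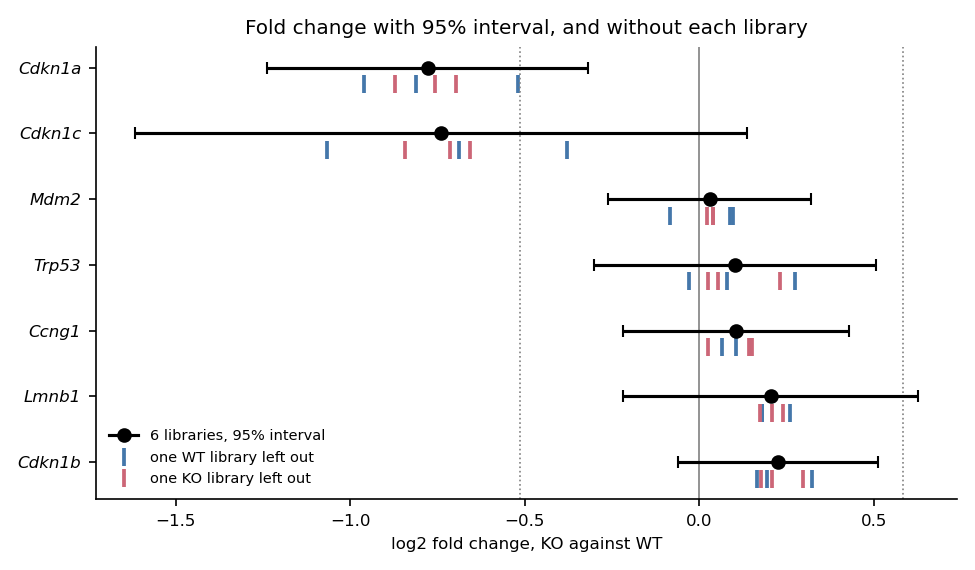
Log2 fold change, KO against WT (horizontal axis), of the 7 tested members, with points and bars for the fit of all 6 libraries and its 95% interval and ticks for fits without a WT (blue) or a KO (red) library. Dotted lines mark the fold thresholds of 1.5 and 0.7. The Cdkn1a interval runs from -1.24 to -0.32, the Cdkn1c interval reaches 0.14, and the other 5 intervals hold 0.

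Per kilobase of exon, the level in WT was highest for Ccng1 at 168 ± 9.74 CPM (SD, n = 3), followed by Mdm2 at 5.77, Cdkn1c at 4.22, Cdkn1b at 4.13, Cdkn1a at 3.67, Trp53 at 1.74, Lmnb1 at 0.953, Gdf15 at 0.199 and Cdkn2a at 0.0557. The WT libraries of Mdm2, Cdkn1c, Cdkn1b and Cdkn1a overlapped from each gene to the next, as did those of Gdf15 and Cdkn2a, and the other neighbours did not. In KO, Cdkn1b stood at 4.84 ± 0.409 CPM per kilobase (SD, n = 3), above Cdkn1c at 2.51 ± 0.321 and Cdkn1a at 2.14 ± 0.261 with no overlap. The KO libraries of Cdkn1a overlapped those of Trp53 at 1.87 ± 0.301, which they did not in WT. These exon lengths include 625 bases of Cdkn1c and 273 of Cdkn1a shared with genes on the opposite strand. Whether reads there were counted is not given, so the places of both genes in the order are uncertain.

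The other genes of the pathway were followed by lists. Together they held 154 genes, of which 118 were tested: 5 passed the thresholds, all lower in KO, or 4.24% beside 5.31% of all genes tested. These 5 were all in the list of denervation and regeneration genes. DESeq2 passed 6 of the 118, beside 771 of all 15623 genes. After adjustment 0 of the 118 were under 0.05 by edgeR and 1 by DESeq2, and 10 had an unadjusted p under 0.05 by edgeR. The count of 5, beside 829 of all genes, moved when a library was left out. It was 13 without WT replicate 2 (3 of them higher in KO, 989 of all genes) and 9 without WT replicate 3 (3 higher, 940). Without KO replicate 1 it was 9 (1 higher, 1065) and without KO replicate 2 it was 8 (0 higher, 909). Without WT replicate 1 it was 7 (1 higher, 807) and without KO replicate 3 it was 6 (1 higher, 830).

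**Figure D4:**
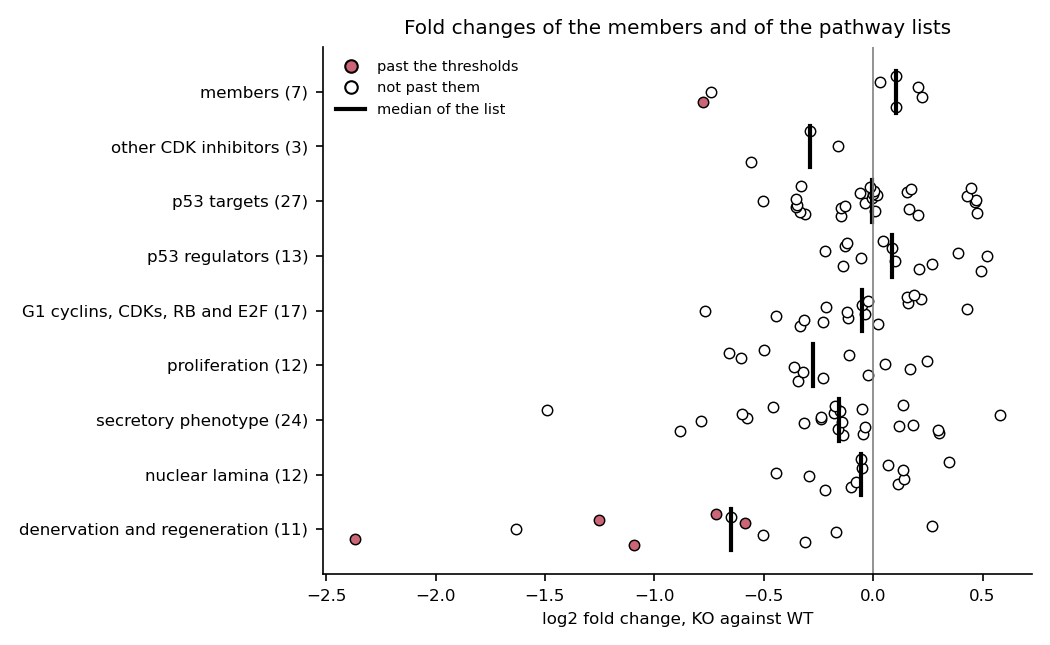
Log2 fold change, KO against WT (horizontal axis), of each tested gene (points) of the members and 8 pathway lists, with the number tested in parentheses, the list median as a bar and genes past the thresholds filled. Filled points appear for 1 member and for 5 genes of the denervation and regeneration list, whose median is -0.65. Gadd45a stands in both that list and the p53 targets.

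Among the p53 targets outside the members, 0 of 27 tested genes passed, with 15 log2 fold changes below 0 and 12 above and a median of -0.0071. By edgeR 1 had an unadjusted p under 0.05. That gene was Trp53inp1, which encodes a p53-induced nuclear protein: it had 5.56, 8.19 and 10.7 CPM in WT and 11.8, 10.9 and 10.9 in KO, with a log2 fold change of 0.45 (unadjusted p = 0.0479, adjusted p = 0.500, edgeR). The WT libraries spread widely and all lay below the KO libraries. The value turned on single libraries: its log2 fold change was 0.69 and past the thresholds without WT replicate 3, and 0.24 without WT replicate 1 (unadjusted p = 0.149, edgeR). The p53 target with the most negative log2 fold change was Gadd45a, singled out after its value was seen, with 32.0, 56.2 and 27.3 CPM in WT and 30.3, 29.8 and 21.3 in KO and overlapping groups.

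Among 13 tested regulators of p53, 0 passed the thresholds, and 3 had an unadjusted p under 0.05, all with higher means in KO, beside 9.89% of all genes tested in either direction. Mdm4, a relative of MDM2 that restrains p53, had 20.4, 18.2 and 19.9 CPM in WT and 30.6, 29.8 and 23.5 in KO. All KO libraries were above all WT libraries, and the log2 fold change of 0.52 (SE 0.14, unadjusted p = 0.00234, adjusted p = 0.299, edgeR) did not reach the fold threshold. It was 0.63 and past the thresholds without KO replicate 3, and 0.27 (unadjusted p = 0.122, edgeR) with library totals in place of TMM factors. The other two, named after their values were seen, were Atm, the kinase that signals DNA breaks, at 0.49, and Ep300, an acetyltransferase, at 0.27 (log2 fold changes). The count ratio of Mdm4 to Mdm2 was 0.834, 0.577 and 0.622 in WT and 1.02, 1.003 and 0.773 in KO, with overlap (exact permutation test, two-sided, p = 0.2).

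The 3 other CDK inhibitors, Cdkn2b, Cdkn2c and Cdkn2d, were all tested and did not pass, with log2 fold changes of -0.56 to -0.16. Cdkn2d, the gene of p19INK4d, had the lowest p of them, with 5.19, 4.08 and 5.20 CPM in WT and 4.51, 3.10 and 4.19 in KO. Of the G1 cyclins, kinases, RB and E2F genes, 17 were tested and 0 passed, with a median log2 fold change of -0.051. Cks1b, a CDK subunit that helps destroy p27, had the lowest p, with 1.704, 0.841 and 1.61 CPM in WT and 1.21, 0.693 and 0.486 in KO (unadjusted p = 0.0767, edgeR).

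Proliferation genes were scarce: 10 of the 22 had too few counts to be tested, and 0 of the other 12 passed. Mcm7, a subunit of the replicative helicase, had the lowest p, with 4.75, 4.48 and 4.35 CPM in WT and 4.39, 6.77 and 4.97 in KO. Of 42 genes of the senescence-associated secretory phenotype, 18 had too few counts to be tested, among them Il6, Il1a, Il1b, Tnf and Ccl2, and 0 of the 24 tested passed. Their median log2 fold change was -0.16, with 18 below 0 and 6 above, and 11 of the 24 had their highest value in WT replicate 3, against 16.3% of all genes tested. Fgf2, a growth factor, had the lowest p, with 9.09, 7.25 and 5.76 CPM in WT and 8.26, 10.1 and 8.72 in KO (unadjusted p = 0.120, edgeR). Of 12 lamina and chromatin genes 0 passed, and Syne2, a nesprin of the nuclear envelope, had a log2 fold change of 0.35 (unadjusted p = 0.0458, edgeR).

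Genes that rise in denervated or regenerating muscle were lower in KO for 5 of 11 tested genes, beside 3.12% of all genes tested. Of the 11 log2 fold changes 10 were below 0, beside 50.6% of all genes, and the median was -0.65. This list was written with earlier results of these data known, and is no independent evidence of its direction. Myog, the myogenin gene, fell from 5.68, 3.64 and 7.15 CPM in WT to 3.30, 1.51 and 2.02 in KO, a log2 fold change of -1.25 (SE 0.32, adjusted p = 0.299, edgeR). Runx1, a transcription factor induced by denervation, fell from 4.62, 5.57 and 6.49 CPM to 4.23, 2.85 and 3.03, a log2 fold change of -0.72 (SE 0.21). Myod1 and Chrng, the gene of the fetal acetylcholine receptor subunit, fell with log2 fold changes of -0.59 and -2.37, and Chrna1 was the fifth. Chrng was rare, with 20, 22 and 80 counts in WT and 13, 3 and 2 in KO. The filter on low counts kept it mostly through WT, where it was high, so its call is weak support. With at least 10 counts required in every library it was not tested, and 4 pathway genes passed. Myod1 no longer passed without WT replicate 3 (-0.43) or KO replicate 1 (-0.48), and Chrng stood at -1.51 without WT replicate 3. For these 5 genes all KO libraries were below all WT libraries, as for Cdkn1a and 7.87% of all genes tested. WT replicate 3 held the highest value for 7 of the 11, beside 16.3% of all genes.

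The protein-coding genes most like Cdkn1a over the 6 libraries were found by the root mean square difference of centred log2 CPM among 12346 genes. They were Stk17b at 0.138, Mtcl1 at 0.150 and Nectin3 at 0.152 on the log2 scale. Stk17b, a kinase of the death-associated family, had 3.29, 4.48 and 7.34 CPM in WT and 2.98, 2.89 and 3.96 in KO, and like Cdkn1a was highest in WT replicate 3. Their likeness to Cdkn1a chose them, so their difference between the genotypes is no further result.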

How the data were processed

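RNA sequencing of TA muscle gave 3 WT and 3 KO libraries. By the paper's methods, the authors mapped paired-end reads (Hisat2) and assigned them to genes (featureCounts). The deposited values are raw counts for 55416 genes, with no normalization and a column of gene lengths. The submitters' processing notes name GRCm39 and the paper GRCm38: positions here are those of the count table, of which 0 of the 9 members match GENCODE M21 on GRCm38. The counting settings for strand and for shared reads are not given in the sources used here. Ensembl identifiers matched a symbol for 52083 genes. The unnumbered WT column was taken as replicate 1, since the others name replicates 2 and 3.

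Counts were filtered with filterByExpr, scaled by TMM and compared in edgeR (version 4.0.16, R 4.3.3) with a robust quasi-likelihood fit of genotype and a prior count of 1. Benjamini-Hochberg adjustment ran over all 15623 genes. A gene passed at an unadjusted p under 0.05 with a fold change over 1.5 or under 0.7. Members that the filter removed, and count ratios, were compared by exact permutation. The fit was tested on simulated data. Of 100 genes changed by 1 on the log2 scale 92.9% passed the thresholds, and of 100 changed by 2, 100%. Of the unchanged genes 2.82% passed. Between libraries of a genotype, chi-square divided by its degrees of freedom was 19.3 to 70.5, above sampling noise, so none were merged.

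The members, lists and tests were chosen with earlier results of these data known. Named were all members, Selenow, in each list the genes past the thresholds (up to 4) or else the gene of lowest p, and the 3 genes nearest to each member that passed. DESeq2 (version 1.42.0), other filters and scalings, a replicate block and leaving out each library were tried.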

Additional observations from a re-analysis of the deposited data

How the results depend on the processing

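Cdkn1a was lower in KO and past the thresholds in all 16 alternatives tried, at log2 fold changes of -1.05 to -0.52. The value nearest 0, -0.518 without WT replicate 3, only just passed the lower threshold, a fold change of 0.7. The adjusted p of Cdkn1a was 0.000993 with no filter on low counts (edgeR), and 0.107 to 0.462 in the other alternatives (edgeR and DESeq2). Cdkn1c was below 0 in all 16 and passed in 6, and the cause of its changes of side was not tested. The count of members past the thresholds was 1, and it was 2 with DESeq2, 2 with robust estimation off, 2 with the replicate block, 2 with library totals in place of TMM factors (Cdkn1a and Cdkn1c in each), and 3 with no filter on low counts (Gdf15 as well). Leaving out each library gave 1 to 3 members, 3 without WT replicate 2, 807 to 1065 of all genes against 829, and 6 to 13 pathway genes against 5. No filter gave 1766 of all genes and 14 pathway genes, and no fold change threshold 1545 and 10. DESeq2 gave 771 of all genes and 6 pathway genes, and robust estimation off 913 and 6. Library totals, an alternative chosen after seeing the data, gave 1779 of all genes and 14 pathway genes, lowered the median of all genes by -0.244 on the log2 scale and made 95.6% of calls lower in KO, against 58.7% with TMM. Under it Cdkn1b stood at -0.023, Trp53 at -0.13, Mdm2 at -0.23, Ccng1 at -0.15 and Lmnb1 at -0.042, all reversed but none past the thresholds. Leaving out each library, Trp53 ranged from -0.030 (reversed, without WT replicate 3) to 0.28 and Mdm2 from -0.085 (reversed, without WT replicate 1) to 0.096. The count of all genes with an adjusted p under 0.05 was 0 in the main fit (edgeR). It was 242 without KO replicate 2, 16 without KO replicate 1 and 2 without WT replicate 3 (edgeR). With library totals it was 55, with at least 10 counts in every library 4 and with the replicate block 1 (edgeR). DESeq2 gave 45, and no filter gave 363 (edgeR), 2 of the last being members. Over 22 named genes, 315 of 351 values kept direction and side, 13 newly passed, 16 no longer passed and 7 reversed.

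The replicate numbers share no stated litter or batch, and the deviations of same-numbered libraries had correlations of 0.060, 0.044 and -0.074 across genes, so the numbers were not taken to pair the mice. With the replicate block the members past the thresholds were 2, all genes 885 and pathway genes 5. Depth limits Cdkn2a and Gdf15, whose libraries held at most 5 and 19 counts.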

Other observations

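Of the 27 tested p53 targets, 10 had their highest value in WT replicate 2, where 16.0% of all genes tested did, and 3 had it in WT replicate 3. Sesn1, which encodes a sestrin, had 8.68, 27.8 and 10.9 CPM in WT and 14.9, 16.3 and 14.4 in KO, and Ddit4, an inhibitor of mTORC1 signalling, had 2.51, 9.81 and 4.31 in WT and 6.002, 3.02 and 6.10 in KO. Eda2r, a receptor of the TNF receptor family, had 30.7, 66.9 and 49.1 CPM in WT and 53.1, 26.2 and 35.5 in KO. These 3 genes were picked with their values in view: the SD of the WT libraries was larger than the difference between the means of the genotypes, and edgeR's test passed none of them.

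Markers of smooth muscle and pericytes summed to between 147 and 187 CPM in WT and between 214 and 282 CPM in KO, most of it from Rgs5, a pericyte gene with 150, 122 and 125 CPM in WT and 191, 236 and 179 in KO. Of the 6 markers Rgs5 and Myh11 passed the thresholds as higher in KO, beside 2.19% of all genes tested, and Acta2 stood at -0.078 and Cspg4 at 0.016 (log2 fold changes). These markers were named with their values in view. The sum of 6 endothelial markers lay between 55.3 and 92.0 CPM in WT and between 82.6 and 96.9 CPM in KO. No arrest or senescence gene was tested against these sums.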
